A study of Mus musculus with 4 samples.

Results

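The Slc25 genes encode the mitochondrial carrier family, membrane proteins that move metabolites, nucleotides, cofactors and ions across the inner mitochondrial membrane. Their accessibility was measured by ATAC-seq, in which a transposase cuts and tags open chromatin, before (D0) and after (D8) differentiation of subcutaneous white fat cells. Members were all protein-coding genes of the mm9 annotation on chromosomes 1 to 19 whose symbol is Slc25a followed by a number. The rule itself used no measured value, though it was set with earlier results of these data known. It gave 41 of 21418 protein-coding genes. A further 3 Slc25 genes on chromosome X lay outside the rule, and the uncoupling proteins Ucp1 to Ucp3, which belong to the same protein family, carry other symbols and were counted among the other transport genes. Peaks were assigned to a member when their summit, the base of highest signal, lay within 50 kb of any of its annotated transcription start sites (TSSs). The 4 deposited peak lists together gave 425 merged sites near members, of 74014 near any protein-coding gene.

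All 4 groups were stromal vascular cells of subcutaneous white adipose tissue from 5-week-old mice, made permanent with a retrovirus carrying SV40 large T antigen and selected with puromycin (im-scWAT cells). They came from wild-type Jmjd1a +/+ mice or from Jmjd1a HY/HY mice. In the HY allele a histidine of JMJD1A, which removes H3K9 methylation, is replaced by tyrosine, so the protein is made without demethylase activity. D0 cells were confluent and not yet induced. D8 cells had received indomethacin, dexamethasone, isobutylmethylxanthine, rosiglitazone, insulin and triiodothyronine for 2 days and then insulin, triiodothyronine and rosiglitazone for 6 days. There was 1 library per genotype and day, so no value below has a replicate error, no test across samples was run, and genotype and culture cannot be told apart. A point mutation cannot be checked from peak lists.

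The lists held 71523 peaks (+/+ D0), 41228 (+/+ D8), 77994 (HY/HY D0) and 48964 (HY/HY D8). The lowest local background in a list, a measure of its depth, was 0.659, 0.531, 0.708 and 0.494 reads in the same order, so both D8 libraries were the shallower ones. Promoters of adipocyte markers had a peak in 3 of 7 genes at D0 and in 7 of 7 at D8 in both genotypes. Of the 6 preadipocyte markers, 6 (+/+) and 4 (HY/HY) were open at D0 and 1 at D8 in either genotype. The beige markers Ucp1, Dio2 and Cox8b had no promoter peak in any library, Elovl3 had one in all libraries, Cidea in all but +/+ D0, Ppargc1a at D8 of both genotypes only, and none of the 3 skeletal muscle or 3 leukocyte markers had one in any library. Of the 3 endothelial markers, 2 (+/+) and 1 (HY/HY) had a promoter peak at D0 and 0 at D8. In such bulk samples, more open cells and more open chromatin per cell cannot be told apart.

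Carriers share a fold of repeated transmembrane segments and work mostly as exchangers: ADP leaves the cytosol as ATP leaves the matrix, malate moves against citrate, aspartate against glutamate. In fat cells, citrate export feeds fatty acid synthesis, acylcarnitine import feeds oxidation, and phosphate and ADP import feed ATP synthesis. Thermogenic adipocytes carry many mitochondria and so depend on these routes in both directions.

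The promoters that the results turn on are shown first, read from the mm9 genome sequence, 5′ to 3′ on the strand of the gene, from 250 bases before to 50 bases after the gene's annotated start, with each CpG in capitals. Slc25a34 (chr4:141179687-141179986, minus strand) was the member whose promoter changed past a factor of 2, Slc25a42 (chr8:72736155-72736454, minus strand) had the highest promoter pileup in 3 of 4 libraries, and Slc25a47 (chr12:110089089-110089388, plus strand) had a promoter peak in no library.
Slc25a34: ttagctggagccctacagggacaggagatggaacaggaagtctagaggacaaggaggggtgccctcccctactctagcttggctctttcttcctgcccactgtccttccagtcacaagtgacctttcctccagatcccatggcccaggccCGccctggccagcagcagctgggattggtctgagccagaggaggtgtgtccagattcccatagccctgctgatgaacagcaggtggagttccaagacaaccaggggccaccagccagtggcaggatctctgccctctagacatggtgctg
Slc25a42: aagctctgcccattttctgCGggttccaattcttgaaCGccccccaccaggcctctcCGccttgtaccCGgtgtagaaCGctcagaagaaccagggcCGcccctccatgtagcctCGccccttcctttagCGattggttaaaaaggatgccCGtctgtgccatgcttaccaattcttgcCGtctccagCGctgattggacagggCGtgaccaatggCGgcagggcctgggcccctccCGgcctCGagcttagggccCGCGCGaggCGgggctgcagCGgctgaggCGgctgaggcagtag
Slc25a47: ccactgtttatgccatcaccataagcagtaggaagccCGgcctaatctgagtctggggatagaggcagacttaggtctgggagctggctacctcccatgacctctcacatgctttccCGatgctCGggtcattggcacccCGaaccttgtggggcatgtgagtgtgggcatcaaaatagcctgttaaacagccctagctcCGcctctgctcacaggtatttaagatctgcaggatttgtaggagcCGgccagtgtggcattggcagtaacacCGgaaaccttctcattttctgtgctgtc
These stretches hold 1, 21 and 7 CpG. The single CpG of Slc25a34 gave an observed-to-expected ratio of 0.038, the lowest among the 41 members and far below the median of 0.69 for the 31 members open in all 4 libraries.

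Distal sites that differed between the days in both genotypes are shown as the 101 bases centred on the wild-type summit, plus strand of mm9, with any AP-1 match (TGANTCA, either strand) in capitals. The first 3 had the strongest D8 peaks without a D0 counterpart, at chr11:120359665-120359765 in an exon of Slc25a10, chr4:149166385-149166485 between genes and chr15:81224803-81224903 in an intron of St13. The last pair had the strongest D0 peaks of which no D8 peak covered more than 50%, at chr3:108967629-108967729 in an intron of Slc25a24 and chr14:69933774-69933874 between genes. No D8 peak touched the Slc25a24 site, whereas the Slc25a37 site had a weaker D8 peak in both genotypes (8 and 12 reads).
Slc25a10 D8 site: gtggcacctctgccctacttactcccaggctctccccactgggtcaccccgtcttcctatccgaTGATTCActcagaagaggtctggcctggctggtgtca
Slc25a33 D8 site: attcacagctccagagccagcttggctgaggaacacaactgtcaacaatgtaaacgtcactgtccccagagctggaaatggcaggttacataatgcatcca
Slc25a17 D8 site: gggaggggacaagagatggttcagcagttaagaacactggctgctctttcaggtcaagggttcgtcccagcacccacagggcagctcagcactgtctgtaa
Slc25a24 D0 site: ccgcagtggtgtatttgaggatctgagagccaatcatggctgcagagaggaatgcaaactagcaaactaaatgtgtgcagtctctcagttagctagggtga
Slc25a37 D0 site: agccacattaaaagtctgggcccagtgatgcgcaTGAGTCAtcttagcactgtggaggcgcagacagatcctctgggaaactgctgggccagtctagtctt
The Slc25a10 and the Slc25a37 sites each held 1 AP-1 match, and no other motif searched was found in these 5 stretches.

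Most members had an open promoter before and after differentiation. A promoter peak was a peak with its summit between 1000 bp upstream and 100 bp downstream of any TSS of the gene. It was present for 33 (+/+ D0), 31 (+/+ D8), 33 (HY/HY D0) and 31 (HY/HY D8) of the 41 members, where 54.2%, 50.2%, 55% and 51.1% of all protein-coding genes had one. Of 26 other genes for mitochondrial transport, 22, 22, 22 and 23 had one. The median summit pileup, the number of reads stacked at the summit, was 41, 34, 47 and 36 among open members and 35, 28, 41 and 29 among all open genes. The same 31 members were open in all 4 libraries.

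No promoter peak was found in any library for 8 members. Slc25a31, the ADP/ATP carrier of the testis, Slc25a47, a carrier of the liver, Slc25a2 (ornithine), Slc25a18 (glutamate), Slc25a21 (oxodicarboxylates), Slc25a41 (ATP-Mg/phosphate) and Slc25a48 had none. Slc25a24, an ATP-Mg/phosphate carrier, was left out only by the window: its peaks had summits 241 and 623 bp downstream of the TSS at D0 (33 reads in +/+, 40 in HY/HY) and 264 and 687 bp downstream at D8 (16 and 10 reads). Slc25a38, the glycine carrier needed for haem synthesis, had a promoter peak of 41 and 43 reads at D0, and at D8 its nearest summits lay 450 and 344 bp downstream, with 32 and 29 reads. Slc25a46, a protein of the outer membrane linked to mitochondrial shape, had 34 and 30 reads at D0 and summits of 21 and 26 reads, 424 and 405 bp downstream, at D8. The 2 promoters listed at D0 only therefore moved out of the window with their summits and did not lose their peaks. With the window widened to 2000 bp before and 1000 bp after the TSS, 34, 34, 34 and 35 members were open.

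**Figure D1:**
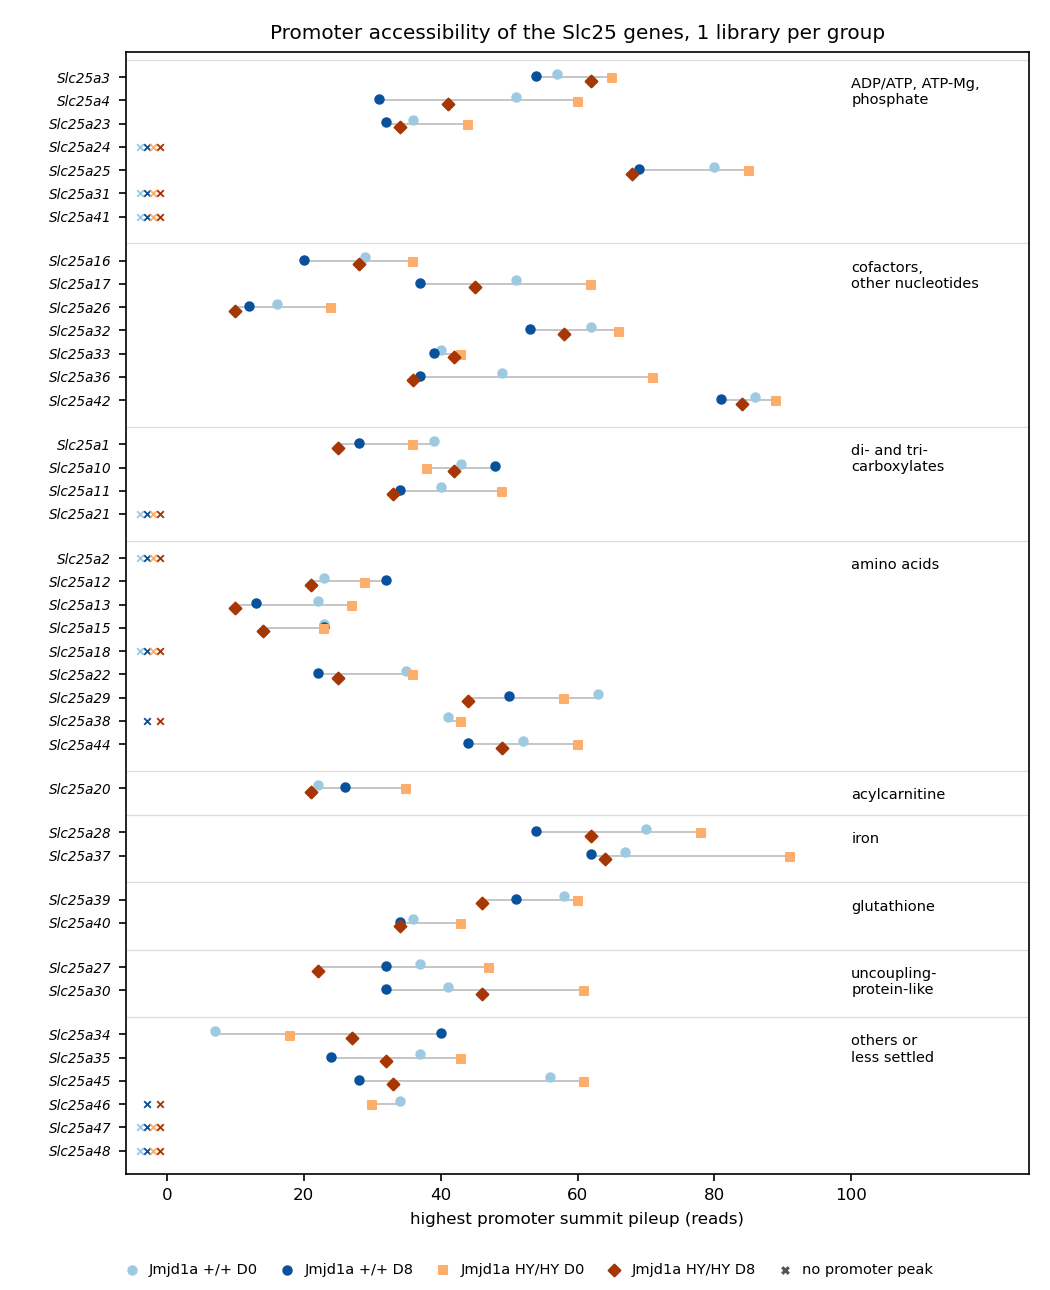
Highest promoter summit pileup in reads (horizontal axis) of 40 of the 41 Slc25 genes, grouped by role, with 1 point per library and a grey line over their range; crosses mark libraries with no promoter peak. Reads are not scaled for depth, and both D8 libraries were the shallower ones. The genes open in all libraries mostly have their D8 points to the left of the D0 points. Slc25a34 has its D0 points, at 7 and 18 reads, to the left of its D8 points, at 40 and 27.

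Promoter pileups at D8 were lower than at D0 over all genes. The median ratio over all genes open in both libraries was 0.792 in +/+ and 0.714 in HY/HY, or −0.34 and −0.49 on the log2 scale. The log2 ratio of the lowest backgrounds, the measure of depth, was −0.31 and −0.52. Changes are therefore given after subtracting the median over all genes (centred log2 pileup ratio), and a change past a factor of 2 is called. The genotypes needed a smaller shift, of 0.19 at D0 and 0.05 at D8. Intervals are 95%. Those of a promoter's change cover counting error only, and those of a median over members reflect the spread between genes. Neither covers error between replicates.

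Slc25a34, a carrier whose substrate is less settled, was the only member past a factor of 2 in any comparison. Its promoter held 7 reads in +/+ D0, 40 in +/+ D8, 18 in HY/HY D0 and 27 in HY/HY D8. Both D8 values were thus above both D0 values, and +/+ had the lower D0 and the higher D8 value. The centred log2 change with differentiation was 2.85 (1.68 to 4.26) in +/+ and 1.07 (0.16 to 2.02) in HY/HY. In +/+ it was the highest change of all 10211 genes open on both days, and in HY/HY it was among the 145 highest of 10406. Calls among all genes were 1.48% higher and 4.17% lower in +/+, and 1.51% higher and 5.18% lower in HY/HY. Among members 1 of 31 was higher and 0 of 31 lower in each genotype. Only the Slc25a34 interval left out 0 among members in either genotype. Over all genes, 2.07% of intervals lay above 0 and 4.74% below in +/+, and 2.35% and 5.98% in HY/HY.

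The called peak at Slc25a34 was 90 bp wide at D0 and 390 at D8 in +/+, and 217 and 495 bp in HY/HY. Its summit stayed between 79 and 104 bp upstream of the TSS. Width is drawn from the same reads as the pileup and is no separate evidence, and the 90 bp peak held 7 reads. The centred log2 pileup change in HY/HY minus that in +/+ was −1.78 (−3.22 to −0.34). It was the only difference of this kind among 31 members whose counting interval left out 0, against 0.658% of 9733 genes open in all libraries. At D0 the HY/HY promoter was higher by 1.17 (−0.16 to 2.67) and at D8 the same difference was −0.62 (−1.38 to 0.12). Both intervals include 0. The +/+ change, the difference of the changes and the D0 difference rest on the 7 reads of the +/+ D0 library, whose peak was absent once weaker peaks were removed (−log10 q of at least 5). By the fold enrichment over local background, which was 3.75, 9.61, 7.33 and 8.38 in the order above, the HY/HY increase did not reach a factor of 2.

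The Slc25a34 promoter also held the word AAAGGTCA, a nuclear receptor half-site, from 132 to 125 bases upstream of the TSS on the opposite strand. This word was added to the search after the sequence had been seen. It was in 1 of 31 members open in all libraries, in 0.853% of all such genes and in 1.22% of all promoters. An intron 1.02 kb downstream of the TSS held a further Slc25a34 site, with 16 and 18 reads at D8 and no peak at D0 in either genotype. At 1.72 kb upstream a +/+ D0 peak of 10 reads had no counterpart in the other libraries.

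**Figure D2:**
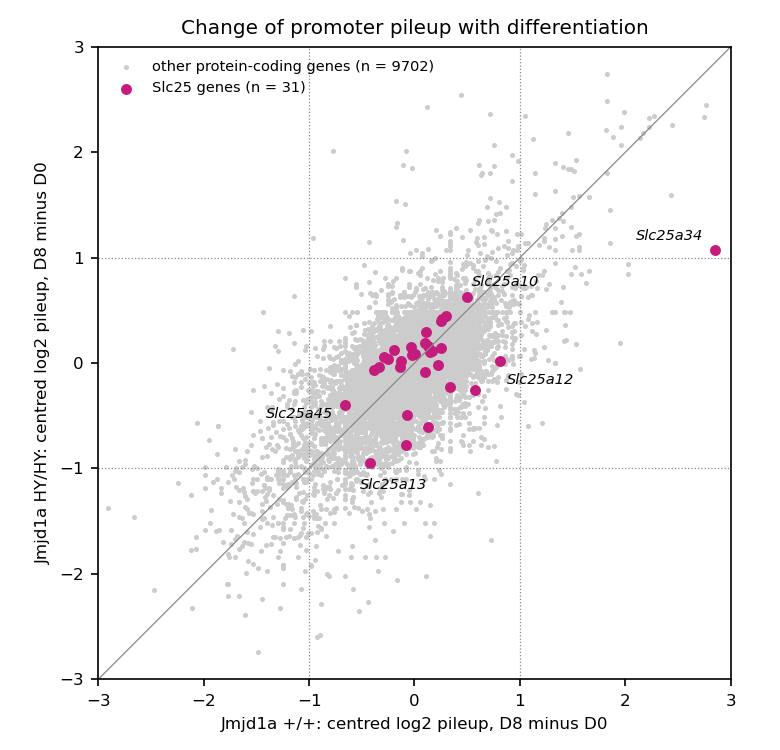
Centred log2 promoter pileup at D8 minus D0 in Jmjd1a +/+ (horizontal) and Jmjd1a HY/HY (vertical), with 31 Slc25 genes in pink and 9702 other protein-coding genes in grey; dotted lines mark a factor of 2. Slc25a34, at 2.85 and 1.07, stands at the right edge, and the other Slc25 genes lie inside the dotted lines.

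Among carriers of ADP/ATP, phosphate and ATP-Mg, the 4 open members stayed within a factor of 2 in every comparison. Slc25a3, which imports the phosphate used for ATP synthesis, had 57, 54, 65 and 62 reads (+/+ D0, +/+ D8, HY/HY D0, HY/HY D8; this order is kept below). Slc25a4, the ADP/ATP carrier of muscle and heart, had 51, 31, 60 and 41 reads. Slc25a25, an ATP-Mg/phosphate carrier, was among the most open with 80, 69, 85 and 68 reads, and Slc25a23 of the same kind had 36, 32, 44 and 34. Centred day changes in this group ran from −0.38 to 0.26 in +/+ and from −0.06 to 0.42 in HY/HY. A start site inside Slc25a25 had a peak of 24 and 40 reads at D0 and none at D8.

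All 8 carriers of cofactors and nucleotides were open in every library. Slc25a42, a coenzyme A carrier, had 86, 81, 89 and 84 reads, the highest of all members in every library but HY/HY D0. Slc25a32 (folate and FAD) had 62, 53, 66 and 58, and Slc25a17, which serves peroxisomes, had 51, 37, 62 and 45. The pyrimidine nucleotide carriers Slc25a33 and Slc25a36 had 40, 39, 43 and 42 and 49, 37, 71 and 36 reads. Slc25a26, the carrier of S-adenosylmethionine, was the least open of the group with 16, 12, 24 and 10. Its centred change was −0.08 in +/+ and −0.78 in HY/HY, inside a factor of 2.

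Carriers of di- and tricarboxylates feed citrate and malate to fat synthesis. Slc25a1, the citrate carrier, had 39, 28, 36 and 25 reads. Slc25a10, the dicarboxylate carrier, had 43, 48, 38 and 42 and was the only member whose raw pileup was higher at D8 in both genotypes besides Slc25a34. Its centred change was 0.50 in +/+ and 0.63 in HY/HY, where it was next after Slc25a34 among members. A TSS inside Slc25a10 had a peak at D8 only (21 and 25 reads), 3 bp from the annotated start. Slc25a11, the oxoglutarate/malate carrier, had 40, 34, 49 and 33 reads.

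Of the 9 amino acid carriers, 7 were open at D0 and 6 at D8. Of the aspartate/glutamate carriers of the malate-aspartate shuttle, Slc25a12 had 23, 32, 29 and 21 reads and Slc25a13 had 22, 13, 27 and 10. Slc25a12 was next after Slc25a34 in +/+, with a centred change of 0.81 (−0.005 to 1.65), and stood at 0.02 (−0.86 to 0.88) in HY/HY. Slc25a13 was lowest in HY/HY at −0.95 (−2.16 to 0.14), with −0.42 (−1.53 to 0.63) in +/+. All these intervals include 0. Slc25a44, the carrier of branched-chain amino acids that brown fat burns, had 52, 44, 60 and 49, and Slc25a29 (basic amino acids) had 63, 50, 58 and 44. Slc25a15, the ornithine carrier of the urea cycle, had 23, 23, 23 and 14 reads. Its centred HY/HY minus +/+ value at D8, −0.77 (−1.84 to 0.25), was the lowest genotype value among members, and this interval includes 0.

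Slc25a20, which imports acylcarnitines for fatty acid oxidation, had 22, 26, 35 and 21 reads. Its centred change was 0.58 in +/+ and −0.25 in HY/HY. The mitoferrins Slc25a28 and Slc25a37, which import iron, had 70, 54, 78 and 62 and 67, 62, 91 and 64 reads. Slc25a39, the glutathione carrier, had 58, 51, 60 and 46, and its relative Slc25a40 had 36, 34, 43 and 34 from a summit also in the promoter window of the neighbour Dbf4. Slc25a27 and Slc25a30, which resemble uncoupling proteins, had 37, 32, 47 and 22 and 41, 32, 61 and 46. Summits shared with another gene were also found for Slc25a11 (Rnf167), Slc25a27 (Cyp39a1) and Slc25a32 (Dcaf13). Slc25a45, of less settled function, had the lowest change in +/+, −0.66, with 56, 28, 61 and 33 reads.

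Over the members open in both libraries of a comparison, the median centred change was 0.10 (−0.08 to 0.23, n = 31 genes) in +/+ and 0.06 (−0.04 to 0.15, n = 31) in HY/HY with differentiation. HY/HY minus +/+ gave 0.01 at D0 (n = 33) and −0.005 at D8 (n = 31). The signs were not stable: by fold enrichment the day medians were −0.078 and −0.04 and the genotype medians −0.030 and −0.062. With pileups scaled by the genome background the genotype medians were 0.104 and 0.149. That scaling subtracts the log2 background ratio (0.10 at D0, −0.10 at D8) in place of the all-gene median (0.19 and 0.05). It shifts all genes of a comparison alike, so this move is not particular to members. The day comparisons of the genotypes share no library, whereas each library enters a day and a genotype comparison. Calls between genotypes were rare in all genes, at 0.432% higher and 0.504% lower at D0 and 0.351% higher and 0.556% lower at D8. Among members Slc25a34 at D0 was the only one. Slc25a20 (0.48) and Slc25a26 (0.39) were next at D0, and Slc25a30 (0.47) and Slc25a16 (0.43) were highest at D8. For Slc25a20 and Slc25a26 the D8 values were −0.36 and −0.31. All these intervals include 0.

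Among the other transport genes, Ucp2, an uncoupling protein of many tissues, was called higher and Sfxn3, a sideroflexin that carries serine, lower with differentiation in both genotypes. Ucp2 had 7, 20, 7 and 11 reads, and Sfxn3 had 72, 22, 83 and 23. The Cpt1b promoter, for a carnitine palmitoyltransferase that makes the acylcarnitines Slc25a20 imports, had a peak at D8 only, with 27 and 18 reads. Their median change was 0.01 in +/+ (n = 21) and −0.03 in HY/HY (n = 22), and none was called between genotypes. Ucp2, Sfxn3 and Cpt1b were named after their values were seen.

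The openness of a promoter went with its CpG content, which the rule did not use. Promoters of the 31 members open in all libraries had a median GC content of 60.7%, 16 CpG and an observed-to-expected CpG ratio of 0.69. The 8 members with no peak in the promoter window had 53%, 9 and 0.43. They include Slc25a24, whose peaks lay just downstream of the window and whose promoter had 72.3% GC, 19 CpG and a ratio of 0.59. Without it, a choice made after its values were seen, the other 7 had 52.7%, 7 and 0.33. Over all genes the ratio was 0.78 for those open in all libraries and 0.21 for those open in none. The SP/KLF word GGGCGG, on either strand, was in 22 of 31 open members and in 3 of the 8 with no promoter peak (2 of 7 without Slc25a24), against 66.4% and 16.9% of all genes. The ETS/GABPA word CCGGAAGT was in 3 of 31 open members (Slc25a11, Slc25a20 and Slc25a26), near the 8.92% of all open genes. The cyclic AMP response word TGACGTCA was in 2 (Slc25a26 and Slc25a36; 3.67% of all open genes). The words searched for NRF1 and YY1, of 10 letters each, and for ERR (TCAAGGTCA) were in none of the 41 windows, and in 1.2%, 1.14% and 0.36% of all promoters.

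**Figure D3:**
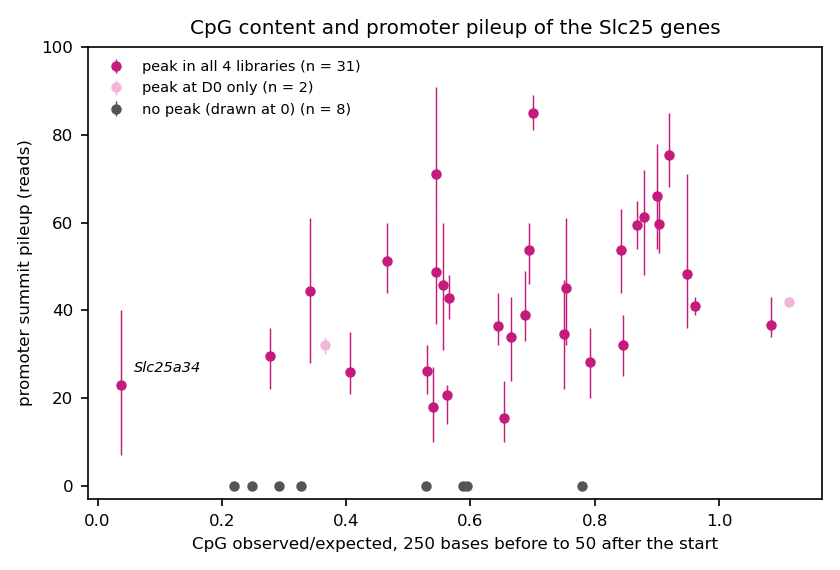
Mean promoter summit pileup in reads over the libraries with a peak (vertical axis; bars span the lowest to the highest library) against the CpG observed-to-expected ratio (horizontal axis) of the 41 Slc25 genes; the 8 genes with no peak are drawn at 0. Slc25a34 is at the far left, with a ratio of 0.038, lower than that of every other member.

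Distal sites near the members differed between libraries more often than their promoters. Of the 425 sites, 44 lay in a member's promoter window, 97 in that of another gene and 284 in none, and the last are called distal. Distal peaks numbered 183, 140, 205 and 146. Their summit pileup had a median of 15, 14, 15 and 13 reads and reached 90, 66, 98 and 77. A peak was present in all 4 libraries at 37 of 44 member promoter sites (84.1%) and at 57 of 284 distal sites (20.1%; 17.3% near all genes). It was also present at 66 of the 97 sites in other genes' promoters (68.0%). Over promoter sites of any annotated gene, coding or not, near protein-coding genes, the share was 66.8%. D8 of both genotypes but neither D0 held 33 distal sites (11.6%, Wilson 95% interval 8.4 to 15.9; 7.2% of all genes' sites). D0 of both genotypes but neither D8 held 62 (21.8%, 17.4 to 27.0; 26.2%). Peaks in a single library made up 26 (+/+ D0), 45 (HY/HY D0), 12 (+/+ D8) and 14 (HY/HY D8) distal sites, or 9.15%, 15.8%, 4.23% and 4.93%, against 9.89%, 17.7%, 2.67% and 5.65%.

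**Figure D4:**
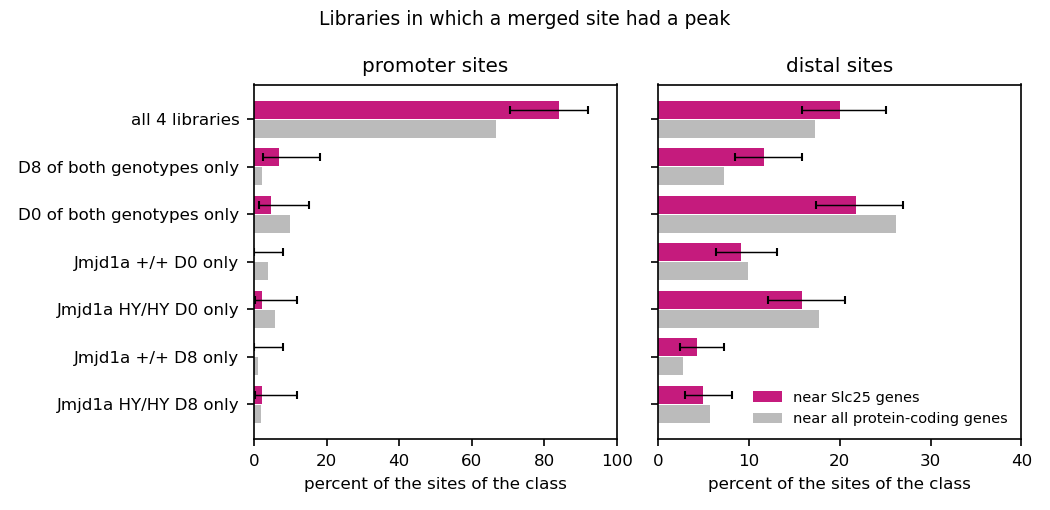
Percent of merged sites (horizontal axis) by the libraries in which they had a peak, for promoter sites (left) and distal sites (right), near Slc25 genes in pink and near all protein-coding genes in grey; bars on the pink columns are Wilson 95% intervals, and patterns of other libraries are not drawn. Pink promoter sites lie in members' own promoters, and grey ones in the promoter of any annotated gene. Promoter sites of members are mostly open in all 4 libraries (84.1%), and distal sites are spread over the patterns.

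A D8 peak was called differentiation-specific when no D0 peak of the same genotype covered more than 50% of it. Near members this held for 60 of 140 distal peaks in +/+ (42.9%, 35.0 to 51.1) and 59 of 146 in HY/HY (40.4%, 32.8 to 48.5), where all genes gave 36.5% and 36%. Closer to the members the share was higher. Within 10 kb of a TSS it was 24 of 45 in +/+ (53.3%, 39.1 to 67.1) and 20 of 39 in HY/HY (51.3%, 36.2 to 66.1), above the 34.9% and 34.4% of all genes at that distance. Within 100 kb it was 35.2% of 256 and 32.6% of 285, against 36.7% and 36.4%. Sites found only at D8 had a median distance of 15.7 kb from the TSS, and those found in all libraries or only at D0 one of 27.8 and 27.6 kb. Within 10 kb lay 13 of 33, 13 of 57 and 10 of 62 sites, in that order. No test across samples stands behind these differences.

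**Figure D5:**
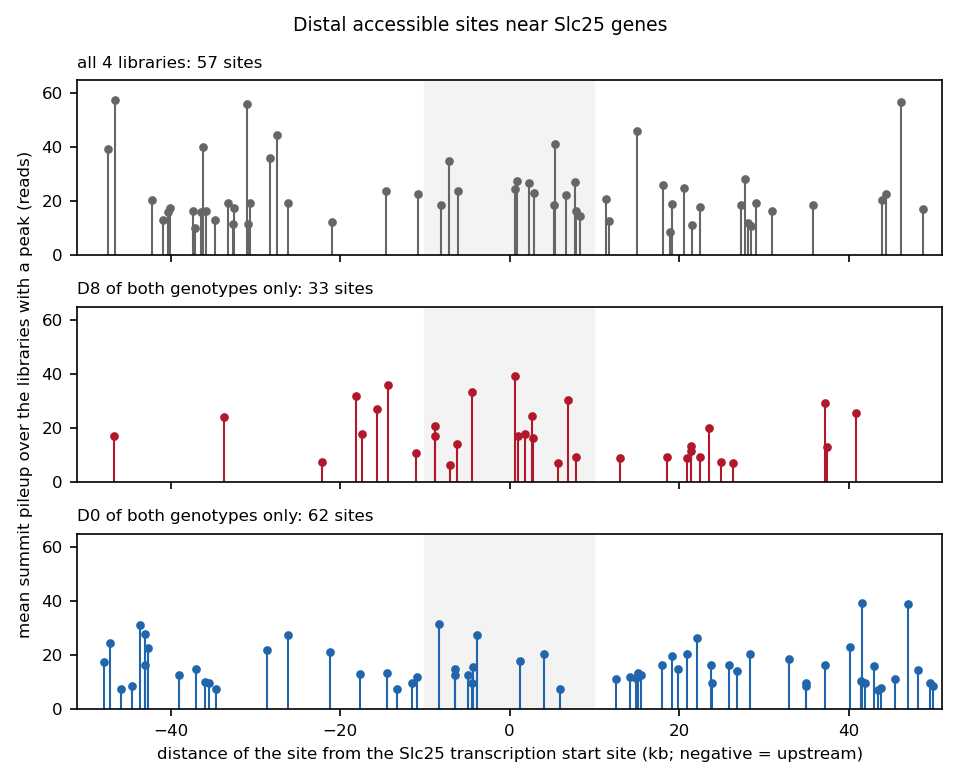
Mean summit pileup in reads (vertical axis) of distal sites by their distance in kb from the Slc25 start site (horizontal axis, negative upstream; shading marks 10 kb on either side) for the 3 commonest patterns shared by both genotypes; the remaining distal sites are not drawn. Of the sites open only at D8, 13 of 33 fall in the shaded part.

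Differentiation-specific distal peaks lay near 29 of 41 members in +/+ and 25 of 41 in HY/HY, where 40.3% and 45.3% of all genes had one. In 22 members they were found in both genotypes. They were found in +/+ alone for Slc25a11, Slc25a15, Slc25a20, Slc25a27, Slc25a31, Slc25a38 and Slc25a48, in HY/HY alone for Slc25a2, Slc25a16 and Slc25a37, and in neither for 9 members. Those 9 included Slc25a3, Slc25a13, Slc25a26, Slc25a36 and Slc25a40. Within 10 kb the counts were 17 and 14 members, against 15.5% and 17.2% of all genes.

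In all, 34 differentiation-specific distal peaks were common to both genotypes, and the 10 strongest lay near Slc25a10, Slc25a17, Slc25a22, Slc25a33 and Slc25a44. Slc25a10 had 3 of them. The strongest, whose sequence opens the list above, was in an exon 0.676 kb from an internal start and had 39 and 40 reads (+/+ and HY/HY). The others were an exon of Gcgr, 40.9 kb downstream, with 24 and 27 reads, and an intergenic site 23.7 kb downstream with 19 and 21. A weaker D8-only site 2.77 kb downstream had 18 and 15. Slc25a10 had 9 distal peaks in +/+ D8 and 8 in HY/HY D8, of which 6 in each were differentiation-specific.

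Slc25a33 had 3 D8-only sites, 15.7 to 18.1 kb upstream. The strongest had 32 reads in both genotypes, the nearest had 30 and 24, and the one between had 18 and 18. No D0 peak touched them. Slc25a44 had 2 in its own introns: one 6.88 kb from the TSS with 29 and 32 reads and no D0 peak, and one 2.82 kb from it, whose merged site had 13, 33, 13 and 34 reads. Slc25a22, a glutamate carrier, had one in Taldo1, 37.2 kb downstream (29 and 30 reads), and one 14.4 kb upstream near Rplp2 (34 and 38). For Slc25a17 the site in St13, 33.7 kb upstream, had 22 and 26 reads. The uncentred log2 HY/HY to +/+ ratios of these 10 ran from −0.32 to 0.24. The ranking took the lower of the genotypes' −log10 q values, which favours sites with like reads in both, and over all 34 common peaks the ratios ran from −1.0 (a Slc25a47 site, 12 and 6 reads) to 1.06 (a Slc25a34 site, 11 and 23).

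Some sites open on both days also gained reads. Of 57 distal sites open in all libraries, 5 in +/+ and 6 in HY/HY were higher past a factor of 2 at D8 and 8 and 6 were lower, where all genes' sites gave 6.25% and 7.85% higher and 19.8% and 18.5% lower. The 5 called higher in +/+ were also called higher in HY/HY. Besides the Slc25a44 intron they were an intron of Slc25a37, 11.3 kb from its TSS (12, 29, 13 and 29 reads), 2 sites of Slc25a25, at 7.87 kb downstream (12, 24, 10 and 20) and 6.08 kb upstream (17, 28, 19 and 31), and an exon of Armc6, 8.15 kb upstream of Slc25a42 (13, 21, 11 and 29). The 3 lower in both genotypes were 14.6 kb upstream of Slc25a4 (34, 13, 38 and 11), in an intron of Slc25a37 (40, 14, 47 and 12) and in Tmpo, 32.5 kb upstream of Slc25a3 (32, 6, 24 and 8). Slc25a37 and Slc25a25 thus had intronic sites with more and with fewer reads at D8, since a Slc25a25 intron had 33, 14, 45 and 16 reads (centred log2 change −0.90 and −1.01).

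The reverse class, D0 peaks not covered at D8 (preadipocyte-specific), was larger when the full lists were used. It held 137 of 183 distal peaks in +/+ (74.9%, 68.1 to 80.6) and 143 of 205 in HY/HY (69.8%, 63.2 to 75.6), below the 79.7% and 77.9% of all genes. The D0 lists held more peaks. With every list shortened to the strongest 41228 peaks, the shares were 67.4% and 57.1%, against 71.5% and 69.7%, and stayed above the differentiation-specific shares of 54.3% and 46.5%. The order of the counts turned: preadipocyte-specific peaks then numbered 64 (+/+) and 52 (HY/HY) and differentiation-specific ones 76 and 59, and 20 sites were found only at D0 and 40 only at D8. Within 10 kb of a TSS, with full lists, the counts were 21 against 24 in +/+ and 22 against 20 in HY/HY. At members' promoters 9 and 8 of 40 peaks were of this class, against 42% and 39.8% for all genes, and 6 and 5 of 40 D8 promoter peaks were differentiation-specific, against 8.1% and 7.58%. Such a peak lay near 39 members in +/+ and 38 in HY/HY (77.3% and 79.9% of all genes). Slc25a40 and Slc25a46 had none in either.

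The strongest of the 78 such peaks common to both genotypes was in the Slc25a24 intron shown above, 41.6 kb from the TSS, with 36 and 43 reads at D0 and no D8 peak touching it. At Slc25a24, then, promoter-proximal reads were lower at D8 and the intronic site had no D8 peak. Next came the intergenic Slc25a37 site, 30.7 kb upstream, with 31 and 27 reads (8 and 12 at D8), a Tmpo intron 34.6 kb upstream of Slc25a3 with 30 and 36, and an intron of Slc25a28 with 31 and 33. The Slc25a39 site 20.9 kb downstream (19 and 22 reads) was untouched at D8 as well. The other 8, which include peaks near Slc25a16, Slc25a27, Slc25a23, Slc25a44 and Slc25a10, were touched in at least 1 genotype by a D8 peak that covered no more than 50% of them.

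Motif shares of the site classes near members lay close to those near all genes for C/EBP and differed more for AP-1, on small counts and with no test. Within 100 bases of the summit the C/EBP word TTGCNNAA was in 9 of 33 D8-only sites (27.3%; 26.7% near all genes), 8 of 57 sites open throughout (14%; 12.1%) and 5 of 62 D0-only sites (8.1%; 8.1%). The AP-1 word TGANTCA was in 5 of 33 (15.2%; 7.26%), 16 of 57 (28.1%; 23.7%) and 23 of 62 (37.1%; 31.5%). The word for the PPARG:RXR pair, of 11 letters, and that for NFI were in no member site of these 3 classes, and at most 0.312% of all genes' sites in a class held the former. The EBF word, of 10 letters, was in 1 of 33, 0 of 57 and 1 of 62.

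Between genotypes the distal sites were largely shared. At D0, 140 of 183 +/+ distal peaks were covered by an HY/HY peak (76.5%, 69.9 to 82.1; 76.9% for all genes) and 130 of 205 HY/HY peaks by a +/+ peak (63.4%, 56.6 to 69.7; 62.7%). At D8 the shares were 108 of 140 (77.1%, 69.5 to 83.3; 77%) and 96 of 146 (65.8%, 57.7 to 73.0; 55%). HY/HY lists were the longer on both days. At the 33 D8-only sites the median centred log2 HY/HY to +/+ ratio was −0.05, with 1 site past a factor of 2 in each direction (0.623% higher and 1.46% lower for all genes). Of 40 promoter peaks, 39, 34, 39 and 36 were covered in the other genotype, in the order of the shares above, against 92.3%, 83%, 91% and 79.5% for all genes.

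Distal sites found in 1 genotype were ranked by −log10 q among those with a D8 peak, and sites found at D0 alone were not ranked. The 10 strongest reached a −log10 q of 9.64. In HY/HY, Slc25a2 had one in Pcdhgc5 with 12 reads at D0 and 10 at D8, Slc25a30 had one 33.2 kb upstream with 6 and 9, and D8 peaks alone included those near Slc25a46 (11 reads), Slc25a44 (20) and Slc25a33 (15). In +/+, D8 peaks alone lay near Slc25a17 (16), Slc25a12 (9), Slc25a30 (9) and Slc25a45 (45 reads over a local background of 16.6). None of these +/+ sites was found on both days. The Slc25a17 site lay in St13, next to the D8 site of both genotypes described above.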

How the data were processed

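ATAC-seq was made from 4 libraries, 1 per genotype and day, with a commercial kit and sequenced on a NovaSeq. The authors trimmed reads, aligned them to mm9, removed duplicates and called peaks per library; the sources name Trimmomatic, Bowtie2, SAMtools, Picard, MACS3 and deepTools, and whether reads were shifted for transposase binding is not given in the sources used here. The deposited narrowPeak lists give fold enrichment at the summit (a ratio of pileup to local background, each plus 1), −log10 p and −log10 q, a display score, and the summit position. Total read counts are not used here, so depth is known only through the background. From fold and −log10 p, the whole-number pileup and the background were solved for every peak (100% within 0.002). TSSs came from GENCODE vM1 on NCBIM37 (mm9), on which no peak ran past a chromosome end; RefSeq tables of another build were not used. Per gene, the highest promoter pileup was taken. Python 3.11.15, pandas 2.3.3, NumPy 2.4.6 and SciPy 1.17.1 were used. Intervals, all at 95%, were Wilson for shares, exact conditional binomial for ratios, a normal approximation for the difference of changes, and order-statistic for medians. Those for ratios and for differences of changes cover the counting error of reads only. Wilson intervals treat peaks or sites as independent draws, and median intervals reflect the spread between genes. None covers error between replicate libraries. The solver and calls were tested on simulated data. Named genes were those without a promoter peak in a library, past a factor of 2, or at the 10 strongest day-specific sites of either kind or 1-genotype sites; other members are given by their values within role groups. The members, role groups, marker lists and rules were chosen with earlier results of these data known. Other thresholds, windows, distances, overlaps and scalings were tried (closing section). The values of 1 member are not reported here.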

Additional observations from a re-analysis of the deposited data

Results flagged for a closer look

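The change of the Slc25a34 promoter with differentiation differed between the libraries of the genotypes. On the log2 scale the change in HY/HY minus that in +/+ was −1.781, with a counting interval of −3.22 to −0.34. Pileups were 7, 40, 18 and 27 reads (+/+ D0, +/+ D8, HY/HY D0, HY/HY D8). The interval compares these 4 libraries and not the genotypes. The difference rests on the 7 reads of +/+ D0, whose peak was absent with −log10 q of at least 5. Fold enrichment was 3.75, 9.61, 7.33 and 8.38 in the same order. The median genotype difference over members had opposite signs on the 2 days, 0.01 at D0 and −0.005 at D8, a gap of −0.0186. Whether it differs from 0 was not tested, and the intervals of both medians, which reflect the spread between genes, include 0. The signs were alike on both days by fold enrichment (−0.030 and −0.062) and with background scaling (0.104 and 0.149).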

How the results depend on the processing

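No paired analysis was possible because each group has 1 library, so the groups share fewer than 2 replicate numbers; a fit of day over both genotypes together was not run. Of 192 recomputed values, 136 stayed within their limits (1.5 times for counts, the 95% interval for shares and medians) and 56 moved; no called change turned its direction, and the cause of a move was not tested except where stated. The number higher with differentiation in +/+ became 0 with −log10 q of at least 5 and with lists shortened to 41228 peaks, because Slc25a34 then lacked a +/+ D0 peak, and so did the number higher in HY/HY at D0 (0 and 0, also 0 with the wide promoter window and with fold enrichment). In HY/HY, fold enrichment gave 0 higher and 1 lower, and the wide window 1 lower. Background scaling moved the genotype medians to 0.104 at D0 and 0.149 at D8, by a shift common to all genes of a comparison. Fold enrichment turned the day medians to −0.078 (+/+) and −0.04 (HY/HY), inside their intervals. The number of members with a promoter peak ran from 31 to 35 over all settings.

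Distal counts followed distance and list length. In the order used above they were 34, 45, 35 and 39 within 10 kb and 395, 256, 434 and 285 within 100 kb; equal lists gave 95 (+/+ D0) and 91 (HY/HY D0), and −log10 q of at least 5 gave 93 (+/+ D8). Members with a differentiation-specific peak fell to 17 (+/+) and 14 (HY/HY) within 10 kb. Sites in all libraries, only at D8 and only at D0 numbered 13, 13 and 10 within 10 kb; those in all libraries and only at D0 numbered 115 and 141 within 100 kb. Equal lists left 20 D0-only distal sites, fewer than the 40 only at D8, and 1 D0-only promoter site, and the q limit 1 D8-only promoter site.

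Differentiation-specific shares were 70.7% (+/+) and 64.4% (HY/HY) when 50% of both peaks had to overlap, 53.3% and 51.3% within 10 kb, 32.6% (HY/HY) within 100 kb and 54.3% (+/+) with equal lists. Preadipocyte-specific shares were 60.1% and 57.6% when 1 shared bp sufficed, 67.4% and 57.1% with equal lists, and 61.8% and 62.9% within 10 kb. Coverage of +/+ D0 peaks in HY/HY was 84.7% (1 bp), 63.9% (both peaks), 82.1% (q limit) and 82.1% (equal lists). For HY/HY D0 peaks in +/+ it was 73.2%, 56.1%, 72.5% and 71.4%, and 77.1% within 10 kb. At D8 it was 67.9% for +/+ peaks (both peaks), and 73.3% (1 bp) and 79.5% (10 kb) for HY/HY peaks. A peak at the lowest background needed 5 reads (4 in HY/HY D8), so weaker sites were not detectable at this depth.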
